A study of Zea mays with 6 samples.

Results

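The ABC transporter transcripts of maize roots were measured by 12 probe sets of 17734 on the array, each made of short oligonucleotide probes. The 12 comprised the probe sets annotated to MRP2, MRP1 and lpa1, a pair of others chosen by name (Zm.11191.1.A1_at and Zm.16538.1.S1_at), and those whose title or description in the authors' deposited table of 12255 probe sets names an ABC transporter, an ATP-binding cassette, a resistance associated protein or a P-glycoprotein. The text search found 11 of the 12, and lpa1 alone entered by name. The 12 probe sets belong to 12 transcript clusters, so none shares its design cluster with another.

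RNA was extracted with TRIzol from roots of maize (Zea mays, cultivar Nongda108) at the reproductive stage and hybridised as biotin-labelled cRNA to Affymetrix maize arrays. In the intercropped group (3 samples) maize had grown with peanut (Arachis hypogaea, cultivar Luhua14), and in the monocropped group (3 samples) maize had grown alone. Both groups grew in a greenhouse under natural light on a calcareous sandy soil with basal fertilizers. No label says whether the replicates of a group came from different plants or pots, or whether plants were pooled, so the spread behind each p-value may be technical.

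ABC transporters are membrane proteins that use ATP to move molecules across a membrane. In plants, the multidrug resistance associated proteins (MRPs, subfamily ABCC) pump glutathione conjugates, flavonoid pigments and other organic anions into the vacuole, and lpa1 is the maize MRP whose mutants have seeds with little phytic acid. P-glycoproteins (subfamily ABCB) include plant pumps that move auxin out of cells in roots and stems.

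No ABC transporter probe set passed the test. In limma, with p-values adjusted by Benjamini-Hochberg over 13116 probe sets, 0 of the 12 had an adjusted p under 0.05, and the count over the whole array was also 0 (0%). At an unadjusted p under 0.05 limma counted 3 of the 12, all lower in intercropped roots. Over the array that unadjusted threshold took 11.1% of probe sets in either direction, and 5.51% as lower in intercropped roots. The authors' deposited table gave 5 probe sets a q-value under 5%, none of them an ABC transporter, and the lowest q-value of a member was 19.0%. By sign, 3 of the 12 were higher and 9 lower in intercropped roots, and their median log2 difference (intercropped minus monocropped) was -0.18, beside 6805 higher and 6311 lower and a median of 0.011 over all probe sets tested. Markers of dividing cells were also mostly lower by sign, with 9 of 30 higher and 21 lower in intercropped roots at a median of -0.14, and their part in the differences of the transporters was not tested. The 3 intercropped and 3 monocropped signals did not overlap for 1 member that was higher and 2 that were lower in intercropped roots. Over the array 17% of probe sets had groups that did not overlap, 8.29% of them higher and 8.69% lower in intercropped roots, all as shares of the probe sets tested.

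All 12 members passed the filter of a signal of at least 50 on at least 3 arrays, because all 12255 probe sets of the deposited table they were found in met that limit already. Of them, 9 had a signal of at least 50 on all 6 arrays. Zm.11191.1.A1_at passed through its monocropped arrays alone, so a difference between its groups was built in. It is among the 3 members with an unadjusted p under 0.05 and among the 2 lower members whose groups did not overlap. These are whole roots, in which fewer cells of a type and less RNA per cell cannot be told apart.

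**Figure D1:**
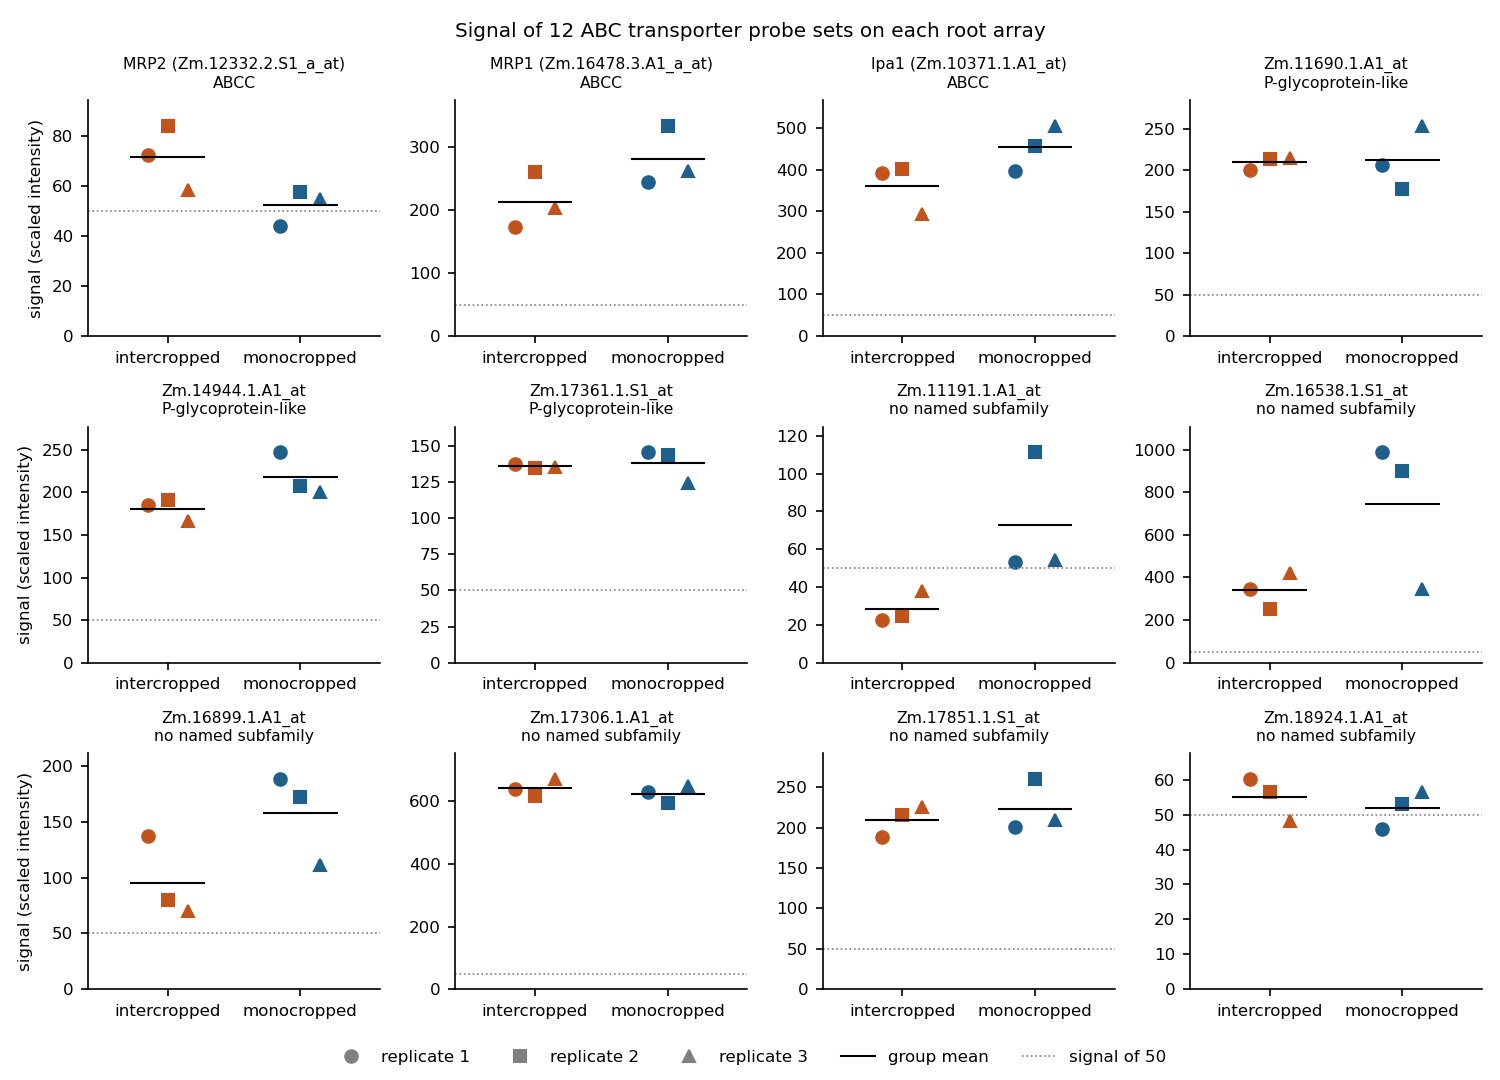
Signal (scaled intensity, linear axis from 0) of each of the 12 ABC transporter probe sets on the 3 intercropped and the 3 monocropped arrays, with 1 point per array, its shape giving the replicate number, a bar at the group mean and a dotted line at a signal of 50. The groups do not overlap for MRP2, Zm.14944.1.A1_at and Zm.11191.1.A1_at, and Zm.16538.1.S1_at has 1 monocropped array far below the other 2.

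MRP2 is a transporter of the ABCC subfamily, whose plant members work mostly at the vacuole membrane. Zm.12332.2.S1_a_at read 72.3, 84.2 and 58.6 on the intercropped arrays, against 44.1, 57.7 and 54.8 on the monocropped arrays. All intercropped arrays lay above all monocropped arrays, although the lowest intercropped and the highest monocropped value were close. MRP2 averaged 71.7 ± 12.8 in intercropped roots and 52.2 ± 7.13 in monocropped roots (SD, n = 3 each). The log2 difference was 0.45 with a standard error of 0.20, a 95% interval of -0.015 to 0.92 and a limma adjusted p of 0.470, which is a fold of 1.37. With 32 added to the signals before log2 the difference was 0.30, since an offset shrinks the differences of dim probe sets. The annotation aligns 15 probes of this probe set with the MRP2 messenger RNA and predicts 9 membrane spans in the protein.

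A further MRP2 probe set, Zm.12332.2.A1_at, is not among the 12 because its signal stayed below 50 on every array. It read 23.8, 48.8 and 36.8 on the intercropped arrays, against 36.5, 40.2 and 37.1 on the monocropped arrays. Its groups overlapped, with the lowest and the highest value both on intercropped arrays. Fitted with no filter, its log2 difference was -0.12 with a standard error of 0.26, an interval of -0.72 to 0.49 and a limma adjusted p of 0.90. The difference between both MRP2 probe sets was not tested.

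MRP1 is another ABCC transporter. Zm.16478.3.A1_a_at read 173, 261 and 203 on the intercropped arrays, against 244, 334 and 262 on the monocropped arrays. The highest intercropped array lay above the lowest monocropped array, so the groups overlapped. MRP1 averaged 212 ± 44.6 in intercropped roots and 280.3 ± 47.5 in monocropped roots (SD, n = 3 each). Its log2 difference was -0.41 with a standard error of 0.20, an interval of -0.88 to 0.060 and a limma adjusted p of 0.510.

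The identity of this probe set is less certain than that of MRP2. The annotation aligns 15 of its probes with another full-length cDNA and only 5 with the MRP1 messenger RNA, which it lists as cross-hybridising, so MRP1 is the annotated name of a signal that can come from a related transcript. A probe set with the same cluster number that is not annotated to MRP1, Zm.16478.2.S1_at, read 135, 85.6 and 55.2 on the intercropped arrays, against 100.3, 70.1 and 61.2 on the monocropped arrays. Its groups overlapped, with a log2 difference of 0.19, a standard error of 0.34 and a limma adjusted p of 0.880.

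The transporter lpa1, listed as MRP4 among its synonyms in the reference gene table, is required in maize for phytic acid to build up in the seed. Zm.10371.1.A1_at read 392, 401 and 292 on the intercropped arrays, against 397, 457 and 506 on the monocropped arrays. The first 2 intercropped arrays lay beside the lowest monocropped array, and the third lay below all others. It averaged 362 ± 60.2 in intercropped roots and 453 ± 54.6 in monocropped roots (SD, n = 3 each). The log2 difference was -0.33 with a standard error of 0.17, an interval of -0.74 to 0.070 and a limma adjusted p of 0.536. The annotation aligns 14 probes with the lpa1 messenger RNA and predicts 14 membrane spans.

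The symbol lpa1 also stands for a second probe set that measures no transporter. Zm.2986.1.A1_at carries the title low phytic acid1 but is described as myo-inositol 1-phosphate synthase, the enzyme that makes the inositol ring from which phytic acid is built. It read 269, 373 and 190.2 on the intercropped arrays, against 201, 128 and 177 on the monocropped arrays. The groups overlapped through the third intercropped array, and the log2 difference was 0.69 with a standard error of 0.28 and a limma adjusted p of 0.425. The symbol thus covers a transporter with a difference of -0.33 and an enzyme with a difference of 0.69, neither of which passed the test.

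The 3 probe sets similar to Arabidopsis P-glycoproteins had a median log2 difference of -0.019, and none passed the test. All 3 were below 0, but 2 of them lay near 0 and turned sign when some single arrays were left out. Zm.14944.1.A1_at, with moderate similarity, read 186, 191 and 166 on the intercropped arrays, against 247, 208 and 201 on the monocropped arrays. All its intercropped arrays lay below all monocropped arrays, the first monocropped array standing highest. The log2 difference was -0.27 with a standard error of 0.14, an interval of -0.61 to 0.068 and a limma adjusted p of 0.551.

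Zm.11690.1.A1_at, with weak similarity to a P-glycoprotein, read 200.5, 213 and 214 on the intercropped arrays, against 206, 178 and 254 on the monocropped arrays. Its intercropped values lay within the monocropped range. The SD was 7.59 in intercropped roots and 38.4 in monocropped roots, and the log2 difference was -0.0071 with an interval of -0.39 to 0.37 and a limma adjusted p of 0.992. Zm.17361.1.S1_at, with moderate similarity, read 138, 135 and 136 on the intercropped arrays, against 146, 144 and 125 on the monocropped arrays. Here too the intercropped values lay within the monocropped range, with an SD of 1.46 in intercropped roots and 11.7 in monocropped roots. Its log2 difference was -0.019 with an interval of -0.33 to 0.29 and a limma adjusted p of 0.971. Whether the spread differed between the groups was not tested.

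The other 6 probe sets are similar to Arabidopsis ABC transporters of no subfamily named in the annotation. The 3 largest differences among the 12 were here, all lower in intercropped roots and none past the adjusted threshold. Zm.16538.1.S1_at read 348, 252 and 418 on the intercropped arrays, against 988, 899 and 343 on the monocropped arrays. The third monocropped array read within the intercropped range, while the other 2 stood above all intercropped arrays. The mean was 339 ± 83.3 in intercropped roots and 744 ± 349 in monocropped roots (SD, n = 3 each). Its log2 difference was -1.02 with a standard error of 0.41, an interval of -1.97 to -0.063, and limma p-values of 0.0396 unadjusted and 0.423 adjusted.

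Zm.11191.1.A1_at shares its annotated similarity, to the same Arabidopsis protein, with Zm.16538.1.S1_at, though they lie in different clusters and both similarities are graded weak. It read 22.3, 24.9 and 37.8 on the intercropped arrays, against 53.3, 111 and 54.1 on the monocropped arrays. All intercropped signals were below 50, and the second monocropped array stood highest. The log2 difference was -1.31 with a standard error of 0.34, an interval of -2.12 to -0.50, and limma p-values of 0.00617 unadjusted and 0.277 adjusted. With 32 added before log2 the difference was -0.76.

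The second monocropped array was high for both probe sets, and the first was high for Zm.16538.1.S1_at alone. Their residual SD exceeded that of 95.7% of probe sets tested for Zm.16538.1.S1_at and of 91.8% for Zm.11191.1.A1_at.

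Zm.16899.1.A1_at, also of weak similarity, read 137, 79.9 and 69.7 on the intercropped arrays, against 189, 172 and 111 on the monocropped arrays. The first intercropped array lay above the third monocropped array, so the groups overlapped. The mean was 95.6 ± 36.3 in intercropped roots and 157 ± 40.6 in monocropped roots (SD, n = 3 each). The log2 difference was -0.75 with a standard error of 0.31, an interval of -1.47 to -0.030, and limma p-values of 0.0431 unadjusted and 0.430 adjusted.

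The remaining 3 probe sets had differences of -0.086 to 0.083. Zm.17306.1.A1_at, of moderate similarity, read 641, 618 and 672 on the intercropped arrays, against 629.9, 594 and 647 on the monocropped arrays. Its residual SD exceeded that of 2.28% of probe sets tested, and its log2 difference was 0.045 with an interval of -0.21 to 0.30 and a limma adjusted p of 0.915. Zm.17851.1.S1_at read 188, 215 and 226 on the intercropped arrays, against 201, 261 and 209.6 on the monocropped arrays, with a log2 difference of -0.086 and a limma adjusted p of 0.880. Zm.18924.1.A1_at read 60.3, 56.6 and 48.2 on the intercropped arrays, against 46.0, 53.2 and 56.5 on the monocropped arrays, with a log2 difference of 0.083 and a limma adjusted p of 0.898. For each of these 3 the intercropped and monocropped values overlapped.

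**Figure D2:**
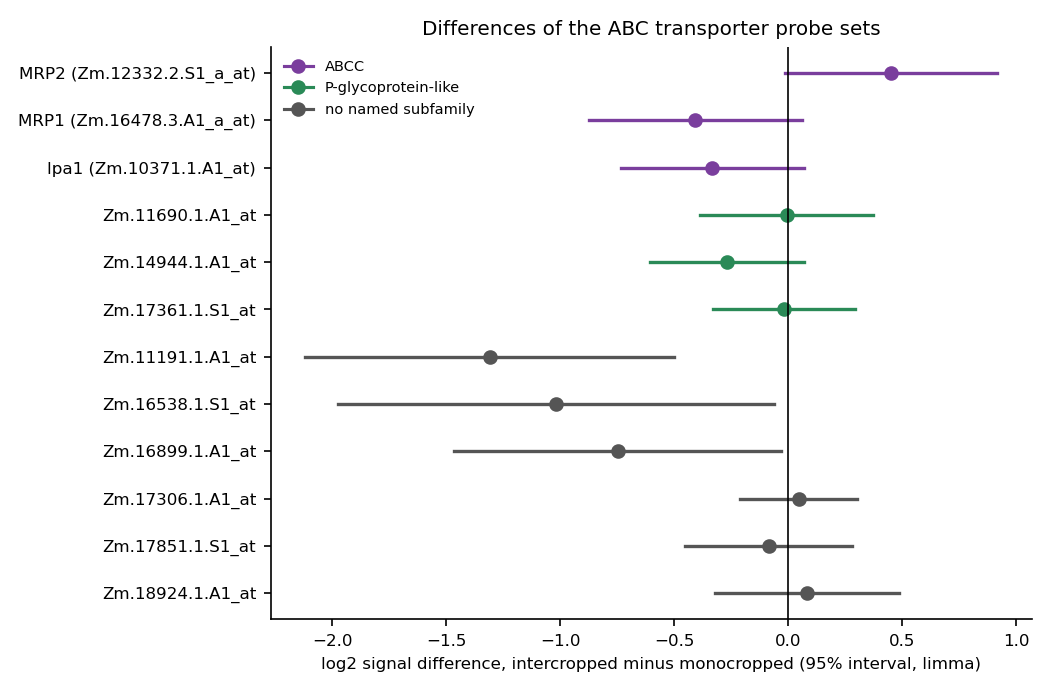
Log2 difference (intercropped minus monocropped) of the 12 ABC transporter probe sets (points) with its 95% interval from limma (lines), coloured by subfamily. The interval includes 0 for 9 of the 12, and the 3 that exclude it belong to the probe sets of no named subfamily. Of these 3, Zm.11191.1.A1_at passed the filter through its monocropped arrays alone, so a difference was built in.

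The 95% intervals show how large a difference remains compatible with the arrays. For lpa1 the interval of -0.74 to 0.070 and for MRP1 that of -0.88 to 0.060 end just above 0 and reach far below it, while that of MRP2 starts just below 0. Standard errors of the 12 ran from 0.11 to 0.41 with a median of 0.17, against a median of 0.18 over all probe sets tested. In size, the difference of MRP2 exceeded that of 86.5% of probe sets tested, that of MRP1 exceeded 84.0% and that of lpa1 exceeded 77.9%. These are descriptions of unadjusted differences, with no test over the 12.

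Single arrays moved several members. Without the third intercropped array the difference of lpa1 was -0.19, and over the 6 fits that leave out 1 array each it ran from -0.42 to -0.19. For MRP1 the range was -0.57 to -0.27, with -0.27 without the first intercropped array and also without the second monocropped array. For MRP2 it was 0.33 to 0.59. For Zm.16538.1.S1_at it ran from -1.50 without the third monocropped array to -0.74 without the first. For Zm.16899.1.A1_at it ran from -1.04 without the first intercropped array to -0.55 without the third, and for Zm.11191.1.A1_at from -1.54 to -0.96, the last without the second monocropped array. For Zm.14944.1.A1_at it ran from -0.33 to -0.18, the last without the first monocropped array. The sign stayed in every fit for 8 of the 12, and 4 with differences near 0 changed it. For MRP2, Zm.14944.1.A1_at and Zm.11191.1.A1_at, whose groups did not overlap, leaving out 1 array could not turn the sign. Their kept signs are therefore no sign of stability.

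**Figure D3:**
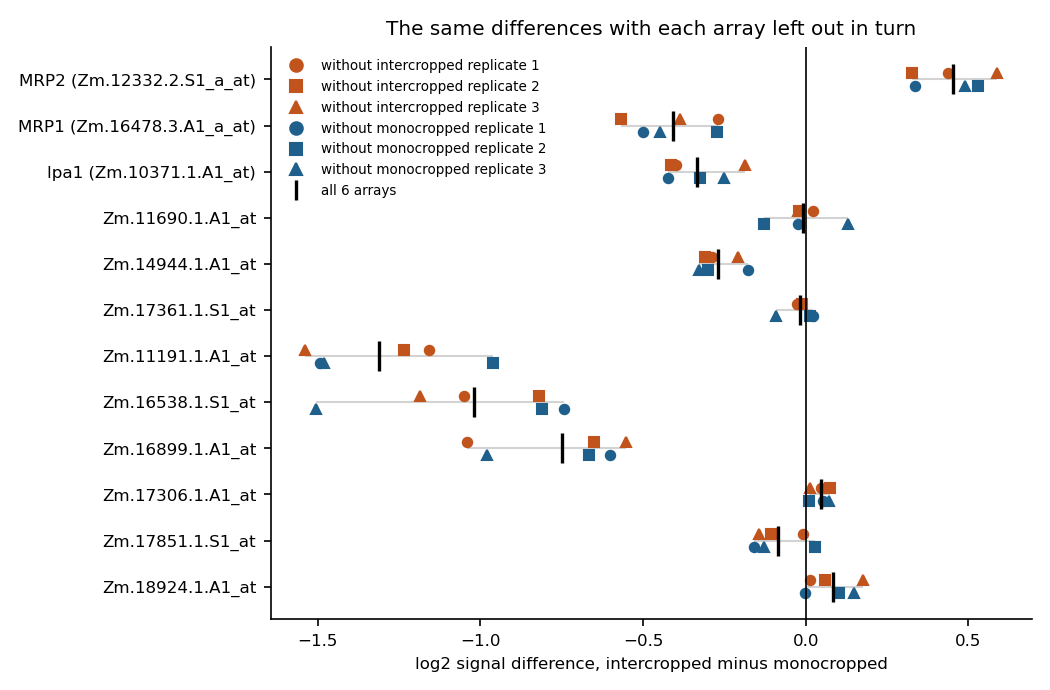
Log2 difference (intercropped minus monocropped) of each of the 12 ABC transporter probe sets with all 6 arrays (black bar) and with each array left out in turn (points, coloured by the group and shaped by the replicate left out). MRP2 stayed above 0 (0.33 to 0.59), while lpa1 (-0.42 to -0.19) and MRP1 (-0.57 to -0.27) stayed below 0, and 4 probe sets near 0 lie on both sides.

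Lists of genes linked to these transporters by substrate were read from the same fit. A text match for inositol, phytase and phytic acid, the last being the cargo of lpa1, gave 15 probe sets, and 0 passed limma's adjusted threshold. Of these, 11 were higher and 4 lower in intercropped roots, at a median difference of 0.11 (log2), beside 0.011 over all probe sets tested. The lower ones include matches to phosphatidylinositol, namely its synthase PIS (-0.14) and Zm.18086.1.S1_at, similar to a transfer protein (-0.010). Matches to inositol polyphosphate 5-phosphatases lay on both sides, at 0.53 (Zm.9302.1.A1_at), 0.11 (Zm.4339.1.A1_at) and -0.13 (Zm.7476.1.A1_at). The higher ones include the phyS11 probe sets below, which share a cluster number. At an unadjusted p under 0.05, 2 of the 15 were higher and 0 lower, which is 13.3% of the list beside 11.1% of the array. The smallest p in the list belonged to phyS11, a phytase, which releases phosphate from phytic acid. Its probe set Zm.14138.1.A1_at read 178, 155 and 191 on the intercropped arrays, against 90.1, 76.8 and 71.9 on the monocropped arrays. The groups did not overlap, with a log2 difference of 1.14, a standard error of 0.16 and a limma adjusted p of 0.129. Another probe set described as phyS11, Zm.14138.2.A1_at, had a difference of 0.28 with a limma adjusted p of 0.619, and Zm.14138.2.A1_a_at, which also carries the symbol phyS11, one of 0.16 with an adjusted p of 0.850. The second smallest p in the list was that of the myo-inositol 1-phosphate synthase probe set described above. The kinase lpa3, which acts on myo-inositol, had a difference of 0.30 with a limma adjusted p of 0.562. The inositol phosphate kinases lpa2 and ipp2K had differences of 0.044 and -0.017, with limma adjusted p-values of 0.945 and 0.984.

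For glutathione, whose conjugates MRPs carry, 44 probe sets were tested and 0 passed limma's adjusted threshold, 17 being higher and 27 lower in intercropped roots, at a median difference of -0.046 (log2). Of the 44, 41 are glutathione S-transferases, which attach glutathione to other molecules, and 3 are enzymes that make it, with differences of -0.24 to -0.039. Some genes have several probe sets and so count more than once by sign. Those of gst31 were all lower, at -0.064 to -0.024, and those with the symbol gst5 lay at -0.034 and 0.23. At an unadjusted p under 0.05, 2 were higher and 5 lower, which is 15.9% of the list beside 11.1% of the array, where 734 were higher and 723 lower. The glutathione S-transferase GST 22 (Zm.550.1.A1_at) read 982, 1602 and 1421 on the intercropped arrays, against 645, 577 and 752 on the monocropped arrays. Its groups did not overlap, and its log2 difference was 1.00 with a standard error of 0.20 and a limma adjusted p of 0.207. The transferase gst30 (Zm.864.1.S1_at) went the other way, reading 120.5, 163 and 225 on the intercropped arrays, against 414, 402 and 302 on the monocropped arrays. Those groups did not overlap either, and the log2 difference was -1.17 with a standard error of 0.25 and a limma adjusted p of 0.219.

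For auxin carriers, which share a cargo with some P-glycoproteins, 6 probe sets were tested and 0 passed limma's adjusted or unadjusted threshold, 2 being higher and 4 lower in intercropped roots, at a median difference of -0.037 (log2). Zm.12687.1.S1_at, similar to an Arabidopsis auxin carrier, read 151, 166 and 224 on the intercropped arrays, against 244, 219 and 233 on the monocropped arrays. The third intercropped array reached the monocropped range, and the log2 difference was -0.38 with a limma adjusted p of 0.492. Zm.12687.1.S1_x_at from the same cluster had a difference of -0.37 with the same adjusted p, and the 2 share a transcript and are not separate evidence. A further probe set of that cluster, Zm.12687.1.S1_a_at, read 95.3, 64.2 and 29.2 on the intercropped arrays, against 55.3, 51.3 and 55.0 on the monocropped arrays, with a difference of 0.066 and a limma adjusted p of 0.966. Among the 12255 probe sets of the deposited table, none matched the list of other exporters of organic molecules, the MATE (multidrug and toxin extrusion) proteins. Probe sets of the array outside that table were not searched.

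**Figure D4:**
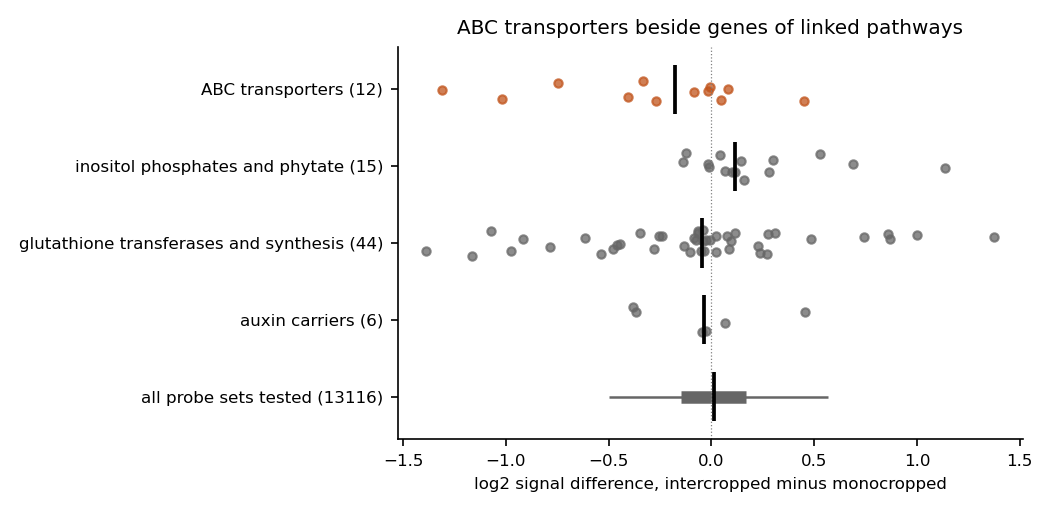
Log2 difference (intercropped minus monocropped) of every tested probe set in the ABC transporter, inositol phosphate and phytate, glutathione (transferases and synthesis) and auxin carrier lists, with 1 point per probe set (spread vertically only for legibility), a black bar at each median, and for all probe sets tested a box from the 25th to the 75th and a line from the 5th to the 95th percentile. The median was -0.18 for the 12 ABC transporters, 0.11 for the 15 matched by text to inositol or phytate, -0.046 for the 44 of glutathione and -0.037 for the 6 auxin carriers.

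Over the 6 arrays, the probe sets with a gene symbol, or with a description that names a similar protein, whose log2 signals were most like those of each ABCC member were taken as a description from 2695 compared, so their r is high by selection. For lpa1 the nearest were Zm.3930.1.S1_at, similar to a long-chain fatty acid CoA ligase (r = 0.978), a phosphoglycerate mutase of glycolysis (r = 0.977) and Zm.4975.1.A1_at, similar to a protein kinase (r = 0.972). For MRP1 they were Zm.12907.1.A1_at, similar to an epoxide hydrolase (r = 0.989), the sucrose synthase LOC542365 (r = 0.983) and Hds1, an enzyme of plastid isoprenoid synthesis (r = 0.975). For MRP2 they were Zm.17538.1.S1_at, similar to a shaggy-like kinase (r = 0.984), the organelle RNA polymerase rpo2 (r = 0.976) and the calpain-like dek1 (r = 0.973). The points share the scaling of their array, and an r above 0.9 was reached by 20 probe sets for lpa1, 27 for MRP1 and 34 for MRP2.

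The arrays were close in overall brightness, with median signals of 134 to 142 and 25.4% to 27.7% of probe sets below 50. The mean signal of the spiked control probe sets ran from 1680 to 2652 on the intercropped arrays and from 1939.6 to 3563 on the monocropped arrays. The median deviation of the 12 members from their own means, on the log2 scale, was -0.16 to -0.013 on the intercropped arrays and 0.0062 to 0.13 on the monocropped arrays. Marker lists were matched by text in the deposited table, whose 12255 probe sets all had a signal of at least 50 on at least 3 arrays. That filter largely sets the counts of markers at 50 or more given here. The root list includes root-specific and root cap matches and tonoplast (vacuole membrane) aquaporins. All 15 root marker probe sets had a signal of at least 50 on all arrays. Their summed signal ran from 13000.1 to 17986 on the intercropped arrays and from 9618 to 19905 on the monocropped arrays. The aquaporin tip2a alone read 2154 to 4249 on the intercropped and 2508 to 5669 on the monocropped arrays. Summed markers of green tissue (18 of 22 at 50 or more on all arrays) ran from 3041 to 4464 on the intercropped arrays and from 3187 to 4369.8 on the monocropped arrays. Those of dividing cells (26 of 30) ran from 17052 to 23250.5 on the intercropped arrays and from 18794 to 23188.5 on the monocropped arrays, and those of seed (10 of 11) from 6928 to 7631.5 on the intercropped arrays and from 7598 to 7665 on the monocropped arrays. These sums overlapped between the groups for all 4 lists. By single probe sets, the median log2 difference was 0.034 for root markers (8 higher, 7 lower), -0.040 for green tissue (9 higher, 13 lower), -0.045 for seed (5 higher, 6 lower) and -0.14 for dividing cells (9 higher, 21 lower). Groups did not overlap for 1 higher and 3 lower of the 30 markers of dividing cells, beside 8.29% higher and 8.69% lower over the array.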

How the data were processed

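The deposited series table holds, per the file headers and its values, linear intensities, 1 for each array and probe set, already scaled by the authors. The submitters' processing notes name GCOS 1.4, while the summary algorithm is not given in the sources used here. Scaling hides any shift that all transcripts share. The authors' deposited filtered table holds the log2 of the same intensities. The authors' deposited SAM table gives a log2 difference, a fold change as a linear ratio and a q-value in percent, and it supplied the annotation text.

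From the intensities, 179 control probe sets were left out, values below 1 were set to 1, log2 was taken, and probe sets with a signal of at least 50 on at least 3 of 6 arrays were tested. Groups were compared with lmFit and eBayes (with trend) of limma 3.58.1 under R 4.3.3, two-sided, with Benjamini-Hochberg adjustment over 13116 probe sets. The fit was tried on simulated independent values with log2 differences larger than that of any member. That trial does not cover differences of the members' size. Signed differences are intercropped minus monocropped, standard errors are limma's moderated ones, and a fold is 2 to the power of the log2 difference. The number of arrays, 3 per group, limits the precision.

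Values on every array are given for the 5 probe sets named in the selection, for members whose groups did not overlap, for the 10 with the smallest p and for the brightest of each subfamily, and Zm.17361.1.S1_at was given as well. Of each linked list the 2 members with the smallest p were named, and lpa2, lpa3, ipp2K, the further phyS11 probe sets and Zm.12687.1.S1_a_at were added after their values were seen. Gene names came from the annotation and, for 3 members, RefSeq's genes on Zm-B73-REFERENCE-NAM-5.0, from which no coordinates were taken. The members and lists were chosen with earlier results of these data known. The alternatives were quantile normalisation, arrays shifted to equal medians, filtering at a mean signal of 100 or not at all, the authors' filtered probe sets, an offset of 32 before log2, eBayes without trend, a replicate block, 1 probe set per cluster, no weak similarities, and leaving out each array.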

Additional observations from a re-analysis of the deposited data

How the results depend on the processing

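No ABC transporter probe set passed limma's adjusted threshold under any alternative, the lowest adjusted p being 0.180 for Zm.16899.1.A1_at without the first intercropped array, with a range of 0.180 to 0.843 for that probe set over the fits that leave out 1 array. Leaving out 1 array could not turn the direction of members whose groups did not overlap. Of 165 values of single members under the alternatives, 159 kept their direction, and 6 turned it when 1 array was left out. These were Zm.11690.1.A1_at (range -0.13 to 0.13, with 0.023 without the first intercropped and 0.13 without the third monocropped array), Zm.17361.1.S1_at (-0.091 to 0.022, with 0.022 without the first and 0.013 without the second monocropped array), Zm.17851.1.S1_at (-0.16 to 0.029, the last without the second monocropped array) and Zm.18924.1.A1_at (-0.0012 without the first monocropped array to 0.18). With a mean signal of at least 100, averaged on the log2 scale, 3 dim members dropped out. They were MRP2 (0.45), Zm.18924.1.A1_at (0.083) and Zm.11191.1.A1_at (-1.31), the first 2 being among the only 3 members higher in intercropped roots. The median of the 9 left was -0.27. It was also -0.27 over the 5 members that name a subfamily without a weak similarity. Both moved from the main median by more than the spread of the member median between arrays (SD 0.071). Leaving out 1 array gave medians of -0.21 to -0.15. Over the whole array 1 probe set was called with an offset of 32, and 0 to 34 with 1 array left out, 34 of them without the first intercropped array, where the cause was not tested. With the replicate block the median of the 12 was -0.18 and 0 probe sets were called over the whole array. Deviations of same-numbered arrays from their group means correlated at 0.27, -0.069 and -0.0041. The third intercropped array correlated best with the second monocropped array (0.33). With 3 arrays per group such deviations are not independent, so whether the replicate numbers pair the samples cannot be told from them. The number of arrays limits what could be detected, and dim members near a signal of 50 are the least certain.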

Other observations

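A soluble ABC protein outside the text search, ABCF1 (Zm.14399.1.S1_at), was looked up after the values were seen. It belongs to a subfamily of ATP-binding cassette proteins that lack membrane spans. It read 201, 221 and 195 on the intercropped arrays, against 215, 222 and 207 on the monocropped arrays. Its groups overlapped, with a log2 difference of -0.061, a standard error of 0.13, a 95% interval of -0.36 to 0.23 and a limma adjusted p of 0.897.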
